A study of Mus musculus with 16 samples.

Results

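The nuclear-encoded respiratory chain genes were the 84 rows of the count table, of 23284 genes in all, whose symbols match the naming of the subunits: Nduf followed by a, b, c, s or v and a number, Sdha to Sdhd, Uqcr, the Cox4 to Cox8 symbols and Atp5. By symbol, 37 belong to complex I, 4 to complex II, 8 to complex III, 18 to complex IV and 17 to complex V. The rule reads symbols only, and it was set with earlier results of these data known. It also takes 5 genes that are not known as subunits of the complex their symbol names: Ndufa4, Ndufa4l2, Cox7a2l, Atp5s and Atp5sl. They stay in the counts by complex. Poly-A selected RNA of mouse lumbar spinal cord was sequenced at 150 days of age in 4 groups of 4 animals. The groups were Atg7 cWT and Atg7 cKO mice without a transgene and Atg7 cWT; SOD1G93A and Atg7 cKO; SOD1G93A mice with it, called here cWT, cKO, cWT_SOD1 and cKO_SOD1. Atg7 encodes an enzyme that autophagosome formation needs, and the SOD1G93A mouse carries a mutant human SOD1 gene and is widely used as a model of amyotrophic lateral sclerosis. The labels do not expand cWT and cKO and name no Cre line or sex, and the series title speaks of inhibiting autophagy in motor neurons, while every library holds the RNA of all cell types of the lumbar cord.

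The respiratory chain sits in the inner mitochondrial membrane. Complex I takes electrons from NADH and complex II from succinate, complex III passes them from ubiquinol to cytochrome c, complex IV hands them to oxygen, and complex V, the ATP synthase, uses the resulting proton gradient to make ATP. Complexes I, III, IV and V are assembled from nuclear and mitochondrial gene products, and complex II from nuclear ones only. In the spinal cord, neurons with long axons depend heavily on this machinery, and several complex IV subunits exist as paired isoforms, one general and one typical of heart and skeletal muscle, testis or lung.

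The libraries held 14989026 to 20892530 counts, and the cWT_SOD1 libraries were at the shallow end, with 14989026 to 17760992. The members took 1.05% to 1.22% of all counts in cWT, 1.06% to 1.11% in cKO, 0.847% to 0.940% in cWT_SOD1 and 0.985% to 1.04% in cKO_SOD1. Atg7 itself stood at 31.4 ± 2.51 counts per 1000000 counts (CPM; SD, n = 4) in cWT and at 28.0 ± 1.06 in cKO, a difference that edgeR's quasi-likelihood test did not call (Benjamini-Hochberg adjusted p = 0.9995). In the transgenic groups the means ran the other way, with 24.1 ± 4.26 CPM in cWT_SOD1 and 27.2 ± 4.503 CPM in cKO_SOD1 (log2 fold change 0.17, edgeR adjusted p = 0.220). Atg7 was called lower in cWT_SOD1 than in cWT (log2 fold change −0.38, edgeR adjusted p = 0.00839). The Atg7 level of whole cord thus gives no check of the cKO labels, and the groups are named as labelled. The human transgene's transcript was not analysed here, and mouse Sod1 lay between 107 ± 5.54 and 121 ± 8.32 CPM in the 4 groups. Of the 84 members, 82 passed the filter on low counts. Cox8c, the testis form of a complex IV subunit, had 0 counts in all 16 libraries, which allows up to 0.0102 CPM over the libraries together, for counting error only. Ndufs5, a complex I accessory subunit, had at most 1 count in any library.

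Levels can be compared between genes only per transcript length, for which the deposited FPKM (fragments per kilobase of transcript and 1000000 mapped fragments) serve. In cWT the highest members were Atp5b, the catalytic beta subunit of the ATP synthase, at 932 ± 53.2 FPKM (SD, n = 4), Atp5k at 851 ± 66.0, Ndufa4 at 844 ± 76.0 and Cox4i1 at 827 ± 52.8. Atp5k, Ndufa4 and Cox4i1 differed by less than their SDs. The median level over genes was 135 FPKM in complex I, 135 in complex II, 179 in complex III, 169 in complex IV and 244 in complex V. At the low end stood Cox7b2 at 1.38 ± 0.735 FPKM and Cox6a2 at 0.788 ± 0.430 FPKM, both isoforms known from other tissues. Atp5b alone gave 13.8% of the members' counts and Atp5a1, its partner in the catalytic hexamer, 10.2%.

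The count table holds few reads of some members. Dividing a gene's CPM by its FPKM gives the transcript length that would join both files, and 6 of 83 members (7.23%) came out under 0.1 kb, beside 0.441% of all 15407 tested genes. They were Ndufs5, Atp5g2, Atp5l, Ndufb4, Cox7c and Atp5k, a set picked after the values were seen, and all are small subunits. The members as a whole came out shorter than all tested genes, with medians of 0.462 kb and 2.66 kb. Ndufs5 did not pass the filter on low counts, so these shares are not of fully like sets. Atp5g2 had 7 to 27 counts per library while its deposited level in cWT was 86.3 ± 6.60 FPKM. How the counting treated reads that match several loci is not stated in the material at hand. The short length alone does not tell whether the counts or the FPKM are off. Both are thus uncertain for these 6 genes, including the level of Atp5k given above. Their deposited levels in cWT, besides Atp5k and Atp5g2 above, were 152 ± 14.8 FPKM for Atp5l, 121 ± 11.8 for Cox7c, 41.2 ± 6.39 for Ndufb4 and 2.39 ± 1.601 for Ndufs5 (SD, n = 4).

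Promoter sequences are shown because shared upstream motifs are the classic description of this gene family. Most members also fell in cWT_SOD1 against cWT, a comparison given below. Windows of 250 bases before to 50 bases after the start, from RefSeq on GRCm38.p6, were at hand for 69 of the 84 members. Exact letters were searched on both strands: GCGCA, any base, then GCGC for nuclear respiratory factor 1 (NRF1), CCGGAAG for ETS factors such as the GA-binding protein, AAGATGGC for YY1, NAAGGTCA for estrogen-related receptors (ERR), and GGGCGG, the GC box. No motif was masked for another, so overlapping matches count for both. The NRF1 letters were in 17 of 69 members (24.6%) and in 5.19% of the 27025 genes of the table, the ETS letters in 16 (23.2%) and 9.93%, the YY1 letters in 11 (15.9%) and 3.19%, the ERR letters in 8 (11.6%) and 5.36%, and the GC box in 28 (40.6%) and 38.2%. In the 100 bases before the start alone the members' shares were 15.9%, 13.0%, 2.90%, 4.35% and 26.1% in the same order. The shares of all genes there were 2.95%, 5.22%, 0.618%, 1.72% and 27.3%. The members' share with the GC box was thus near that of all genes in either window. Among the 52 matched members that fell in cWT_SOD1 against cWT, 25%, 21.2%, 17.3%, 5.77% and 32.7% held the NRF1, ETS, YY1, ERR and GC box letters in the whole window. Among the other 17 members the shares were 23.5%, 29.4%, 11.8%, 29.4% and 64.7%. For NRF1 the 100-base window gave 13.5% of the fallen and 23.5% of the other members. These shares were not tested. The lines below give the 150 bases before the start, 5′ to 3′ along the gene's strand, with matches in capitals. They are, for each complex, the member with the largest fall in that comparison among those with an NRF1, ETS, YY1 or ERR match in this stretch, followed by Cox6b2 and Cox7a1, which rose and have no such match.
Ndufa11 (chr17:56717612-56717761, plus strand): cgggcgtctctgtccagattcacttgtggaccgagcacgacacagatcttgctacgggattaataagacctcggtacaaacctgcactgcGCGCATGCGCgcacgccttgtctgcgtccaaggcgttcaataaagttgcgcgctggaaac
Sdha (chr13:74350241-74350390, minus strand): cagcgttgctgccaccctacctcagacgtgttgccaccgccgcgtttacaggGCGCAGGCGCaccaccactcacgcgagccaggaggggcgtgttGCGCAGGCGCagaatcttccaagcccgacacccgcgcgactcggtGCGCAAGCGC
Uqcrh (chr4:116075071-116075220, minus strand): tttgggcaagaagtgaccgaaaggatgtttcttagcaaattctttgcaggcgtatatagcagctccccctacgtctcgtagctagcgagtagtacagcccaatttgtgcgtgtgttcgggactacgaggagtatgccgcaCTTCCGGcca
Cox6b1 (chr7:30626115-30626264, minus strand): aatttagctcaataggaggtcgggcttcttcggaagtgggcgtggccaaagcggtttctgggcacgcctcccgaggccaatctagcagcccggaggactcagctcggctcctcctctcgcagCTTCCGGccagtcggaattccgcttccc
Atp5g3 (chr2:73911327-73911476, minus strand): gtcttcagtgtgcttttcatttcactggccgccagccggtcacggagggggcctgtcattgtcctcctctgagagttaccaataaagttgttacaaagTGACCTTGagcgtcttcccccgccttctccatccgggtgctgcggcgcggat
Cox6b2 (chr7:4753095-4753244, minus strand): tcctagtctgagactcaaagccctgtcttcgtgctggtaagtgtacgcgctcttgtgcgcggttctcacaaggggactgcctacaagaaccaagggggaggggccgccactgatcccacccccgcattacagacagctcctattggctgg
Cox7a1 (chr7:30184021-30184170, plus strand): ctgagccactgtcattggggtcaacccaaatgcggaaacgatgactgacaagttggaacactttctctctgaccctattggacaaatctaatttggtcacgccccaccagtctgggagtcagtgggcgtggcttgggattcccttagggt

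The Ndufa11 and Sdha stretches carry NRF1 letters, 3 times in Sdha, the Uqcrh and Cox6b1 stretches the ETS letters on the opposite strand, and the Atp5g3 stretch the ERR letters on the opposite strand. A match describes these letters only.

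Each library was first summarised by the median, over the tested genes of a complex, of the gene's log2 CPM minus its mean over all 16 libraries. For complex I the values were 0.07 to 0.32 in cWT, 0.04 to 0.16 in cKO, −0.29 to −0.11 in cWT_SOD1 and −0.08 to 0.02 in cKO_SOD1. No cWT_SOD1 library reached the lowest library of any other group. The group means of complexes III, IV and V lay in the same order, with 0.14, 0.15 and 0.14 in cWT and −0.16, −0.17 and −0.17 in cWT_SOD1. In complex V the cWT_SOD1 libraries were again below all others, but in complexes III and IV they overlapped with cKO_SOD1. The highest cWT_SOD1 library was at −0.105 in complex III and −0.077 in complex IV, and the lowest cKO_SOD1 library at −0.115 and −0.106. Complex II did not follow this order: its cWT_SOD1 libraries ran from −0.08 to 0.06 and overlapped with the cWT libraries, at −0.06 to 0.18. The lowest cWT_SOD1 library of complex II lay below the lowest cWT library. Its lowest group was cKO_SOD1, with a mean of −0.09 ± 0.06. In every complex the highest library was replicate 4 of cWT.

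**Figure D1:**
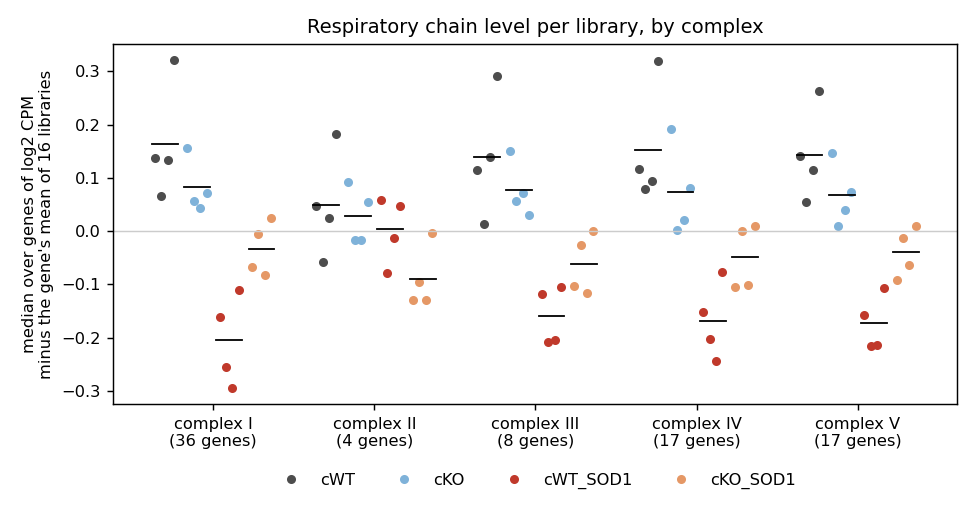
Median over the tested genes of each complex of log2 CPM minus the gene's mean over 16 libraries (y axis), by complex (x axis); each point is a library, coloured by group, and bars are means of 4 libraries. The cWT_SOD1 libraries of complex I lie between −0.29 and −0.11, below all others, while in complex II they overlap with cWT.

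Set against cWT, the cWT_SOD1 libraries give the effect of the transgene on the members where Atg7 is cWT. Of the 82 tested members 61 fell and 4 rose, where 33.1% of all 15426 genes tested were called lower and 33.2% higher. The median log2 fold change of the members was −0.33, beside 0.01 over all genes. By complex, 30 of 36 tested complex I genes fell and 0 rose (median −0.35), 6 of 8 of complex III fell and 0 rose (−0.30), 11 of 17 of complex IV fell and 3 rose (−0.35), and 13 of 17 of complex V fell and 0 rose (−0.34). In complex II 1 of 4 fell and 1 rose, with a median of −0.06. Genes were called at an adjusted p under 0.05 by edgeR's quasi-likelihood test, fitted to all 16 libraries, with Benjamini-Hochberg adjustment over all genes tested.

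Markers of the cord's cell types moved with this result. All 8 pan-neuronal markers fell, from a summed 10067 to 10686 CPM in cWT to 3064 to 4862 in cWT_SOD1, and all 8 motor neuron markers fell, from 476 to 616 down to 137 to 187 CPM. The 6 astrocyte markers rose, from a sum of 6110.4 to 6415 up to 18507 to 22949 CPM, as did all 7 microglial markers, from 254 to 289 up to 1426 to 2240.3 CPM. Of the 6 oligodendrocyte markers 4 fell, with sums of 24557 to 28131 in cWT and 19945 to 23881 in cWT_SOD1. Of the 5 endothelial markers 1 rose and 1 fell, and of the 5 pericyte markers 3 rose and 1 fell. None of these markers was at 0 in all libraries, while 4 of 5 erythroid markers, the globins, were, and Alas2, the last of them, was not called. The part of these markers in the members' result was not tested. In bulk RNA, fewer cells of a type and less RNA per cell cannot be told apart.

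**Figure D2:**
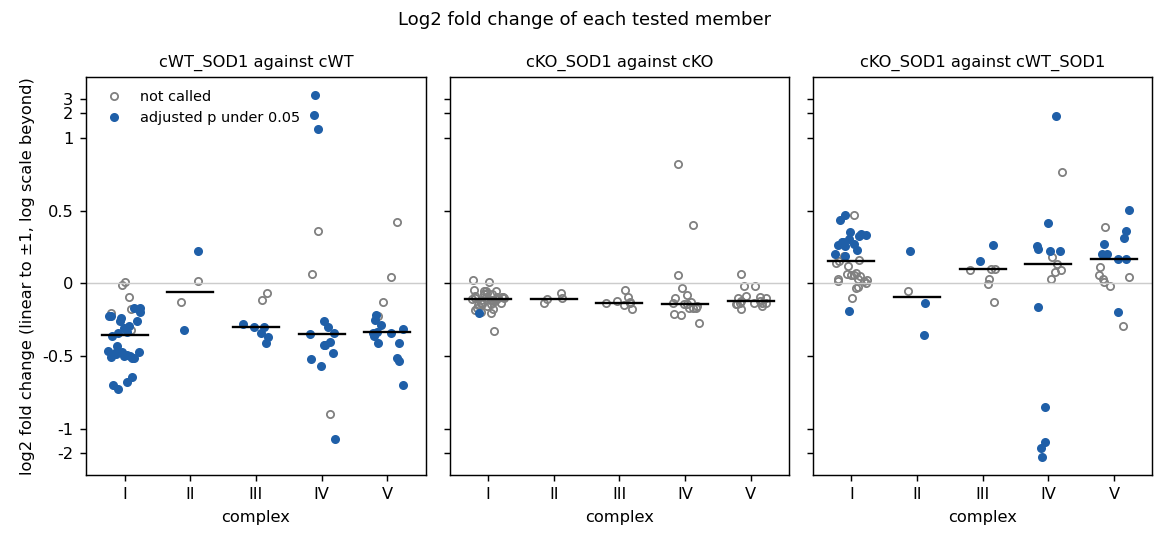
Log2 fold change of every tested member (y axis, linear to ±1 and log scale beyond) by complex (x axis) in 3 comparisons; filled points are called at an adjusted p under 0.05 by edgeR, open points are not, and bars are medians. Most complex I, III, IV and V genes lie below 0 in the left panel, with medians of −0.30 to −0.35, and Cox6a2, Cox6b2 and Cox7a1 stand far above.

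Complex I has a core that carries out electron transfer and many accessory subunits around it. All 7 nuclear core genes fell, with a median of −0.48, and 21 of 27 tested accessory genes fell, with a median of −0.32. Ndufs1, a core subunit that holds several iron-sulfur clusters, measured 191, 184, 197 and 211 CPM in the cWT libraries and 159, 130.5, 122 and 142 CPM in the cWT_SOD1 libraries. The accessory subunit Ndufb8 (chr19:44624744-44629905, mm9) measured 164, 163, 163 and 195 CPM in cWT and 108, 95.8, 90.2 and 121 CPM in cWT_SOD1. For both genes all cWT_SOD1 libraries lay below all cWT libraries. Ndufb8 fell 1.65-fold (log2 fold change −0.72, SE 0.08, edgeR adjusted p = 4.47e-07). Ndufa4, first described in complex I and now counted to complex IV, fell from 249.1 ± 24.9 to 153 ± 20.6 CPM (log2 fold change −0.70, edgeR adjusted p = 5.86e-07). Ndufa12, an accessory subunit, fell from 27.8 ± 6.73 to 17.4 ± 5.90 CPM (edgeR adjusted p = 0.0123), but its libraries overlapped and without replicate 4 of cWT the adjusted p by edgeR was 0.0522. The 6 tested complex I genes without a call were Ndufa1, Ndufa2, Ndufa7, Ndufb4, Ndufs4 and Ndufv3. Ndufa4l2, a relative of Ndufa4 that is not known as a complex I subunit, fell as well (log2 fold change −0.64, edgeR adjusted p = 0.0143, or 0.0556 without replicate 1 of cWT). Without replicate 4 of cWT_SOD1 the complex I median was −0.43.

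Complex II, succinate dehydrogenase, has 4 genes, and they went different ways. Sdha, the flavoprotein that oxidises succinate (chr13:74459703-74487688, mm9), measured 642, 616, 639 and 678 CPM in cWT and 517, 511, 503 and 528 CPM in cWT_SOD1. These libraries did not overlap, and Sdha fell 1.25-fold (log2 fold change −0.32, SE 0.04, edgeR adjusted p = 4.08e-06). Sdhc, which anchors the enzyme in the membrane (chr1:173059288-173080734, mm9), measured 109, 105, 112 and 126 CPM in cWT and 126, 134, 138 and 132 CPM in cWT_SOD1. The groups touched at 126 CPM, and Sdhc rose 1.17-fold (log2 fold change 0.22, SE 0.05, edgeR adjusted p = 0.00118). The iron-sulfur subunit gene Sdhb had a log2 fold change of 0.02 and the second anchor gene Sdhd one of −0.13, and neither was called.

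In complex III all 3 core and catalytic genes fell. Uqcrc1, a core subunit, measured 288, 284, 291 and 310.2 CPM in cWT and 225, 217, 209 and 231 CPM in cWT_SOD1. The groups did not overlap, and the fall was 1.33-fold (log2 fold change −0.41, SE 0.05, edgeR adjusted p = 5.02e-07). Uqcrh, the hinge protein beside cytochrome c1, fell 1.29-fold (edgeR adjusted p = 2.62e-05), and the small subunit gene Uqcr11 fell 1.27-fold (edgeR adjusted p = 4.80e-04). Uqcr10 and Uqcrb were not called.

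In complex IV the general subunits fell while 3 isoforms of other tissues rose. Cox5a, a subunit next to the catalytic core, measured 187, 179, 194 and 205 CPM in cWT and 140.3, 116, 116 and 142 CPM in cWT_SOD1. Its groups did not overlap, and it fell 1.49-fold (log2 fold change −0.57, SE 0.07, edgeR adjusted p = 5.82e-07). Cox7b fell 1.43-fold (edgeR adjusted p = 2.04e-06) and Cox4i1, the general form of the regulatory subunit IV, fell 1.39-fold (edgeR adjusted p = 1.27e-06). Cox6a2, the heart and skeletal muscle form of subunit VIa (chr7:135348949-135349880, mm9), measured 0.768, 1.20, 0.111 and 0.498 CPM in cWT and 3.63, 8.61, 7.48 and 6.37 CPM in cWT_SOD1. Its groups did not overlap, and it rose 10.1-fold (log2 fold change 3.33, SE 0.40, edgeR adjusted p = 1.04e-06). Cox6b2, the testis form of subunit VIb, measured 1.84, 1.26, 1.99996 and 0.942 CPM in cWT and 3.01, 5.92, 9.52 and 4.31 CPM in cWT_SOD1, and rose 3.77-fold (edgeR adjusted p = 4.71e-05). Cox7a1, the heart and skeletal muscle form of subunit VIIa, measured 3.28, 1.599, 2.94 and 3.27 CPM in cWT and 7.63, 6.65, 5.61 and 7.43 CPM in cWT_SOD1, and rose 2.45-fold (edgeR adjusted p = 1.63e-05). Neither gene's groups overlapped. Cox8b, a further heart and muscle form, went the other way: 0.666, 0.742, 0.611 and 0.443 CPM in cWT and 0.492, 0, 0.283 and 0.199 CPM in cWT_SOD1 (log2 fold change −1.34, edgeR adjusted p = 0.0160). It rests on few counts, its groups overlapped, and without replicate 2 of cWT_SOD1, the library at 0, the log2 fold change was −0.89. Cox4i2, the lung form of subunit IV, and Cox7b2, a testis form, were not called here.

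In complex V the catalytic subunit gene Atp5b (chr10:127520363-127527444, mm9) measured 1587, 1489, 1565 and 1742 CPM in cWT and 1159, 1052, 1039.8 and 1162 CPM in cWT_SOD1. The groups did not overlap, and Atp5b fell 1.45-fold (log2 fold change −0.53, SE 0.06, edgeR adjusted p = 3.92e-07). Of the 5 genes of the catalytic F1 head 4 fell, of the 7 tested genes of the stalk and membrane part 5 fell, and of the 3 genes of the c-ring, the proton-driven rotor, 2 fell. Atp5s (log2 fold change −0.25) and Atp5sl (−0.28), which are not known as ATP synthase subunits, also fell and are among the 13 called genes of complex V. Atp5e, the smallest F1 subunit, had a log2 fold change of 0.05 and was not called.

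**Figure D3:**
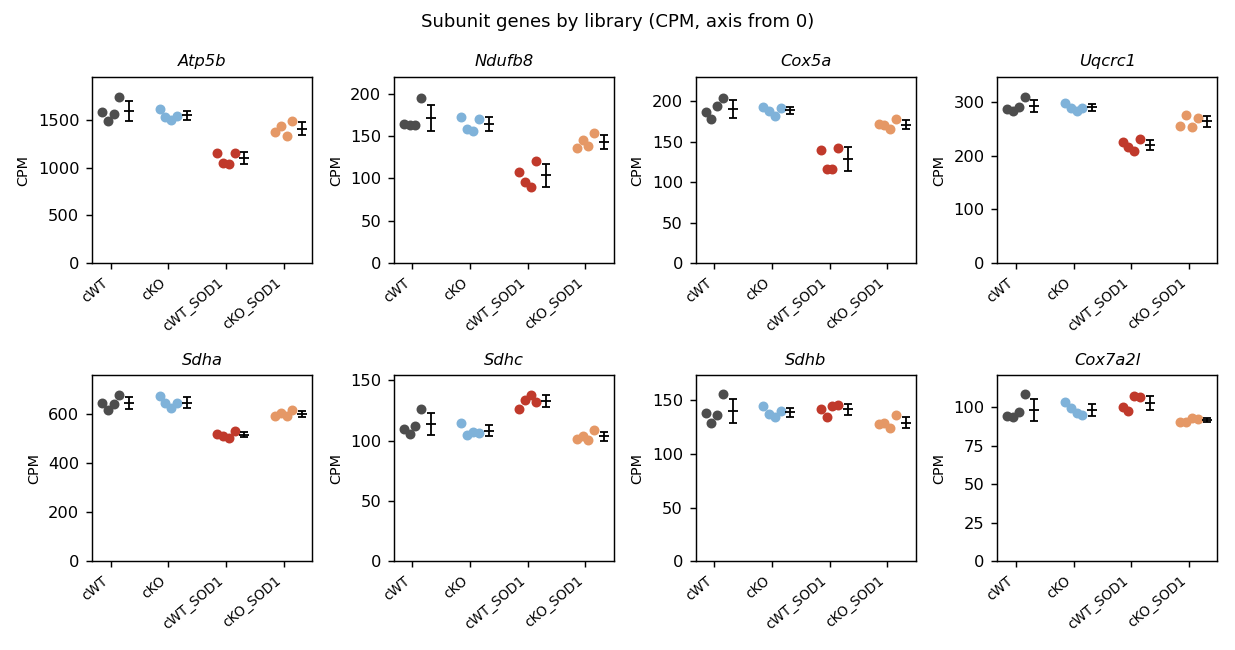
CPM in each library (y axis, from 0) by group (x axis) for 8 members, among them Cox7a2l, which is not known as a complex IV subunit. Bars beside the points are the mean ± SD of 4 libraries. Atp5b, Ndufb8, Cox5a, Uqcrc1 and Sdha are lowest in cWT_SOD1, Sdhc is highest there, and the cWT and cWT_SOD1 libraries of Sdhb and Cox7a2l overlap.

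The second comparison, cKO_SOD1 against cWT_SOD1, asks how the Atg7 genotype bears on these genes where the transgene is present. Of the 82 tested members 32 rose and 9 fell, where 29.1% of all genes tested were called higher and 29.1% lower, and the median log2 fold change was 0.13 beside −0.01 over all genes. By complex 15 of 36 genes rose and 1 fell in complex I, 1 of 4 rose and 2 fell in complex II, 2 of 8 rose and 0 fell in complex III, 6 of 17 rose and 5 fell in complex IV, and 8 of 17 rose and 1 fell in complex V, with medians of 0.16, −0.09, 0.10, 0.13 and 0.17. This comparison and the first share the 4 cWT_SOD1 libraries, so their values are set side by side without a test of one against the other. The pan-neuronal markers rose, 8 of 8, to a sum of 6571 to 7238 CPM in cKO_SOD1. Of the 6 astrocyte markers 6 fell, to 9904 to 10568 CPM, and of the 7 microglial markers 7 fell, to 503 to 537 CPM. Of the 6 oligodendrocyte markers 4 rose, to 24174 to 28176 CPM. Of the 8 motor neuron markers 2 rose and 2 fell (167 to 218 CPM in sum), of the 5 endothelial markers 1 rose and 1 fell, and of the 5 pericyte markers 2 rose and 2 fell. Atg7 was not lower in cKO_SOD1 than in cWT_SOD1, as given above. Their part in the members' values was not tested.

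Ndufb8 measured 136, 145, 138 and 154 CPM in the cKO_SOD1 libraries, all above its 4 cWT_SOD1 values, and rose 1.38-fold (log2 fold change 0.47, SE 0.08, edgeR adjusted p = 8.70e-05). Ndufs1 measured 178, 174, 174 and 182 CPM there, also above every cWT_SOD1 library, and rose 1.28-fold (edgeR adjusted p = 1.51e-04). Of the 7 complex I core genes 5 rose and 0 fell, and of the 27 accessory genes 9 rose and 1 fell, the last being Ndufa2 (log2 fold change −0.19, edgeR adjusted p = 0.0455). That call was lost in 11 of the 16 fits that left out 1 library, at edgeR adjusted p-values of 0.0513 to 0.103: replicates 1 and 3 of cWT, and replicates 2, 3 and 4 of cKO, cWT_SOD1 and cKO_SOD1.

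Sdha measured 590.3, 603, 591 and 613 CPM in cKO_SOD1 and rose 1.16-fold (log2 fold change 0.22, edgeR adjusted p = 3.19e-04). Sdhc measured 101, 104, 101 and 109 CPM, below every cWT_SOD1 library, and fell 1.28-fold (log2 fold change −0.36, SE 0.05, edgeR adjusted p = 1.89e-05). Sdhb measured 142, 134, 145 and 146 CPM in cWT_SOD1 and 128, 129, 125 and 136 CPM in cKO_SOD1, overlapping at 1 library (log2 fold change −0.13, edgeR adjusted p = 0.0389). That call was lost in 10 of the 16 fits that left out 1 library, at edgeR adjusted p-values of 0.0512 to 0.0865: replicates 1 and 3 of cWT, 2, 3 and 4 of cKO, 3 and 4 of cWT_SOD1, and 1, 2 and 3 of cKO_SOD1.

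Uqcrc1 measured 256, 276, 254 and 271 CPM in cKO_SOD1 and rose 1.20-fold (log2 fold change 0.26, edgeR adjusted p = 1.15e-04). Its partner core gene Uqcrc2 rose 1.11-fold (edgeR adjusted p = 0.0336), a call that 5 single libraries carried. Without replicates 2 or 3 of cWT_SOD1, or 1, 3 or 4 of cKO_SOD1, the edgeR adjusted p was 0.0579 to 0.143.

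Cox5a measured 171, 170.2, 165 and 179 CPM in cKO_SOD1, above all cWT_SOD1 libraries, and rose 1.33-fold (log2 fold change 0.41, edgeR adjusted p = 3.27e-05). Cox7b rose 1.18-fold (edgeR adjusted p = 0.00511), Cox4i1 rose 1.17-fold (edgeR adjusted p = 0.00311), and Cox5b rose 1.19-fold (edgeR adjusted p = 0.0167, or 0.0509 without replicate 4 of cKO_SOD1). Cox6a2 measured 1.41, 2.25, 0.932 and 1.14 CPM and fell 4.58-fold (log2 fold change −2.19, SE 0.35, edgeR adjusted p = 4.05e-05). Cox6b2 measured 1.70, 1.20, 2.003 and 1.99 CPM and fell 3.30-fold (edgeR adjusted p = 1.43e-04). Cox7a1 measured 2.28, 2.72, 2.33 and 2.69 CPM and fell 2.71-fold (edgeR adjusted p = 8.03e-06). For these 3 isoforms every cKO_SOD1 library lay below every cWT_SOD1 library. Cox4i2 measured 2.09, 2.01, 1.47 and 1.66 CPM in cWT_SOD1 and 0.703, 1.20, 0.978 and 1.09 CPM in cKO_SOD1, and fell 1.803-fold (edgeR adjusted p = 0.00240). Cox7b2 was called higher (log2 fold change 1.83, edgeR adjusted p = 0.0197) from levels under 2 CPM, and the adjusted p by edgeR was 0.0514 without replicate 1 of cWT_SOD1 and 0.0775 without replicate 1 of cKO_SOD1.

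**Figure D4:**
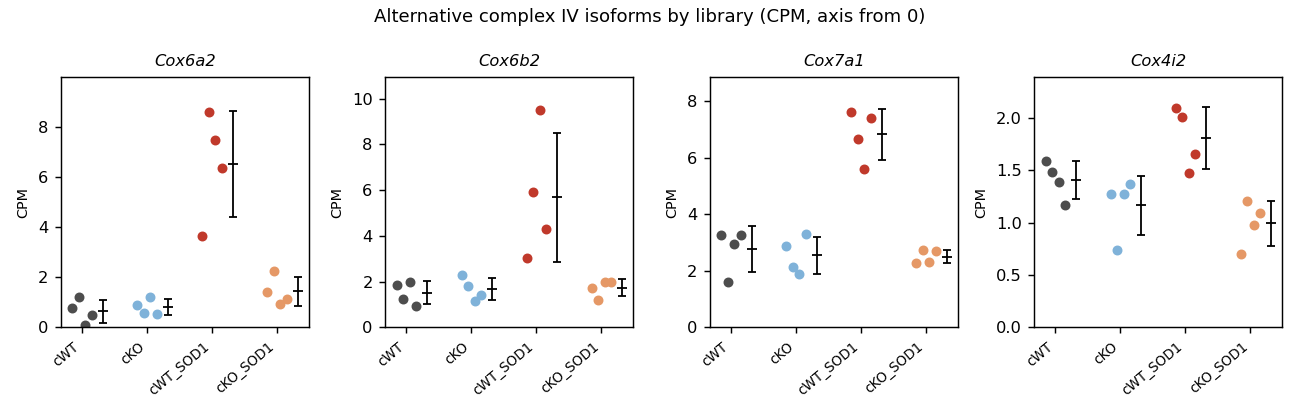
CPM in each library (y axis, from 0) by group (x axis) for 4 complex IV isoforms known from other tissues; bars are the mean ± SD of 4 libraries. Cox6a2, Cox6b2 and Cox7a1 are higher in all 4 cWT_SOD1 libraries than in any other library.

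Atp5b measured 1379.9, 1436, 1341 and 1494 CPM in cKO_SOD1 and rose 1.28-fold (log2 fold change 0.36, SE 0.06, edgeR adjusted p = 5.32e-05). Its libraries lay above all of cWT_SOD1. The F1 gene Atp5e fell 1.148-fold (edgeR adjusted p = 0.0362), from 72.1 ± 6.47 to 62.8 ± 3.67 CPM (SD, n = 4). Leaving out replicate 2 or 4 of cWT_SOD1 or replicate 1 or 3 of cKO_SOD1 gave an edgeR adjusted p of 0.0742 to 0.0939.

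In the comparison of cKO_SOD1 with cKO, 1 of the 82 tested members was called lower and 0 higher, where 2.48% of all genes tested were called lower and 4.8% higher. The members lay slightly below 0 as a body: 76 of 82 log2 fold changes were negative, with a median of −0.12 beside 0.00 over all genes, and 25 had an unadjusted p under 0.05, all of them lower. The medians by complex were −0.11, −0.10, −0.13, −0.14 and −0.12 for complexes I to V. The called gene was Ndufa10, a complex I accessory subunit, with 172, 161, 166 and 168 CPM in cKO and 144, 147, 139 and 148 CPM in cKO_SOD1. Its groups did not overlap (log2 fold change −0.20, edgeR adjusted p = 0.0157), and without replicate 1 of cKO, or 1 or 3 of cKO_SOD1, the edgeR adjusted p was 0.0563 to 0.0751. The count of called members depends on the fit. DESeq2 called 7 lower, limma-voom with weights by group 15, and edgeR on the 8 libraries of these groups alone 26, with Ndufa10 among them each time. The next smallest p-values belonged to Ndufa9 (edgeR adjusted p = 0.0533), Cox7b (0.0629), Uqcrh (0.0735) and Uqcrc1 (0.0869). In the same comparison 5 of 8 pan-neuronal and 8 of 8 motor neuron markers fell, 6 of 7 microglial, 2 of 6 astrocyte and 1 of 5 pericyte markers rose, and no oligodendrocyte or endothelial marker was called. Their part was not tested.

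In the comparison of cKO with cWT, without the transgene, 0 members were called in either direction by edgeR, DESeq2 or limma-voom, and 0.00648% of all genes tested were called higher and 0.0194% lower. By edgeR 8 members had an unadjusted p under 0.05, all lower in cKO. The smallest p was that of Uqcr11, which had 31.6 ± 1.70 CPM (SD, n = 4) in cWT beside 27.4 ± 2.38 CPM in cKO (log2 fold change −0.20, SE 0.07, edgeR adjusted p = 0.9995). The median over the members was −0.07, beside 0.00 over all genes, and the medians by complex ran from −0.08 in complex I to −0.03 in complex II. Without replicate 4 of cWT, the highest library in every complex, they were −0.03 in complex I and 0.01 in complex II. All 8 motor neuron markers had negative log2 fold changes here (median −0.40), with sums of 476 to 616 CPM in cWT and 420 to 483 CPM in cKO. Of these Mmp9 (−0.81) and Chodl (−0.75) were called lower by edgeR, and they are 2 of the 3 genes called lower in the whole table. No pan-neuronal, glial, endothelial or pericyte marker was called, and the part of these markers in the members' values was not tested.

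The interaction asks whether the transgene's effect differs between cKO and cWT. It was called higher, meaning a smaller fall or a larger rise in cKO, for 29 of the 82 members and lower for 4, where 23.2% of all genes tested were called higher and 21.8% lower. The complexes had 15 higher and 0 lower of 36 (I), 1 and 1 of 4 (II), 2 and 0 of 8 (III), 4 and 3 of 17 (IV) and 7 and 0 of 17 (V). Ndufb8 had an interaction of 0.53 on the log2 scale (SE 0.11, edgeR adjusted p = 0.00113), and Ndufs7, a core subunit, one of 0.42 (edgeR adjusted p = 7.14e-04). Atp5b had 0.40 (edgeR adjusted p = 9.12e-04) and Cox5a 0.43 (edgeR adjusted p = 0.00102). The 4 lower ones were Cox6a2 at −2.51 (SE 0.62, edgeR adjusted p = 0.00322), Cox6b2 at −1.86 (edgeR adjusted p = 0.00425), Cox7a1 at −1.32 (edgeR adjusted p = 0.00135) and Sdhc at −0.29 (edgeR adjusted p = 0.00444). The Rieske protein gene Uqcrfs1 had 0.21 (edgeR adjusted p = 0.0318), a call that 8 of the 16 fits without 1 library lost, at edgeR adjusted p-values of 0.0514 to 0.0699: replicates 3 and 4 of cWT, 3 and 4 of cKO, 2 and 3 of cWT_SOD1, and 2 and 4 of cKO_SOD1. The cell type markers moved with the interaction: 8 of 8 pan-neuronal (median 0.72), 3 of 8 motor neuron, 3 of 6 oligodendrocyte and 1 of 5 endothelial markers were called higher. Of the microglial markers 6 of 7 were called lower (median −1.91), as were 5 of 6 astrocyte (median −0.76) and 1 of 5 pericyte markers. Their part was not tested. Without replicate 4 of cWT the median interaction was 0.14 in place of 0.22 in complex IV and 0.12 in place of 0.18 in complex III.

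Isoforms of 1 subunit can be set against each other as a ratio of FPKM values within a library. Cox7a1 was 7.54% ± 1.597 of Cox7a2 in cWT, 7.55% ± 1.91 in cKO, 26.4% ± 1.45 in cWT_SOD1 and 8.34% ± 0.236 in cKO_SOD1 (SD, n = 4 each). Cox6a2 was 0.134% ± 0.0776 of Cox6a1 in cWT, 0.140% ± 0.0279 in cKO, 2.25% ± 0.633 in cWT_SOD1 and 0.430% ± 0.0768 in cKO_SOD1. Cox6b2 was 0.753% ± 0.233 of Cox6b1 in cWT, 0.821% ± 0.208 in cKO, 3.52% ± 1.801 in cWT_SOD1 and 0.908% ± 0.212 in cKO_SOD1. In all 3 pairs the 4 cWT_SOD1 libraries lay above those of the other groups, and the general form stayed the more abundant by far. Cox4i2 was 0.297% ± 0.0703 of Cox4i1 in cWT and 0.546% ± 0.0903 in cWT_SOD1, and Ndufa4l2 was 0.326% ± 0.111 and 0.328% ± 0.0647 of Ndufa4 in the same groups. The two-sided exact permutation test over the 70 assignments of 4 against 4 libraries cannot go below p = 0.0286. The Cox7a1, Cox6a2, Cox6b2 and Cox4i2 ratios, and that of Atp5g2 to Atp5g3, reached that p in cWT_SOD1 against cWT. All of these, and the ratio of Cox7b2 to Cox7b, also reached it in cKO_SOD1 against cWT_SOD1, and Cox6a2 in cKO_SOD1 against cKO. Over the 32 tests of this kind the Benjamini-Hochberg adjusted exact p was 0.0762, so no ratio passed the threshold. With that lowest p a fully separated ratio could not pass on its own, so the adjusted test cannot decide about single ratios.

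Beside the isoforms known from muscle stand the muscle markers, which were read in all libraries. The summed level of the 7 skeletal muscle markers was 2.11 to 2.88 CPM in cWT, 1.54 to 2.22 in cKO, 1.42 to 2.34 in cWT_SOD1 and 2.20 to 2.38 in cKO_SOD1, so it was no higher in cWT_SOD1 than in cWT. Both that passed the filter, Acta1 and Mylpf, were not called. Myh4 had at most 2 counts in any library. Of the 4 heart muscle markers, with sums of 9.61 to 14.3 CPM in cWT_SOD1 and 11.2 to 13.9 CPM in cWT, 3 were tested, 1 rose (Tnni3, log2 fold change 1.27) and 1 fell (Tnnt2, −0.73). Myl7 had at most 1 count in any library.

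The c-ring of the ATP synthase is made from 3 genes, Atp5g1, Atp5g2 and Atp5g3, whose mature proteins are the same and whose import sequences differ. On the FPKM scale Atp5g3 measured 546, 511, 527 and 603 in cWT and 394, 380.0, 372 and 432 in cWT_SOD1. Atp5g1 measured 112, 117, 108 and 114 FPKM in cWT and 78.9, 68.6, 66.1 and 80.5 FPKM in cWT_SOD1. Both fell by edgeR on the counts, Atp5g3 1.43-fold (adjusted p = 9.60e-07) and Atp5g1 1.62-fold (adjusted p = 9.26e-05). Atp5g2 went the other way on the FPKM scale, with 85.3, 80.6, 83.4 and 95.8 FPKM in cWT and 106, 115, 121 and 119 FPKM in cWT_SOD1. Its groups did not overlap, and limma on log2(FPKM + 0.1) called the rise (log2 fold change 0.42, SE 0.06, adjusted p = 5.93e-05). In cKO_SOD1 it measured 90.8, 91.7, 80.7 and 87.4 FPKM, below all cWT_SOD1 libraries (limma log2 fold change −0.40, adjusted p = 1.47e-04), and the limma interaction was −0.38 (adjusted p = 0.00469). Its counts gave nearly the same log2 fold change, 0.42, with an SE of 0.32 and no call (edgeR adjusted p = 0.255), at 7 to 27 counts per library. Atp5g2 was 15.8% ± 0.118 of Atp5g3 in cWT, 16.3% ± 0.723 in cKO, 29.3% ± 2.58 in cWT_SOD1 and 17.9% ± 0.935 in cKO_SOD1 (FPKM ratio, SD, n = 4). Because Atp5g2 is nearly missing from the counts, and copies of its sequence could take or give reads, its FPKM is uncertain. The 4 other tested genes with short apparent length, Atp5k, Atp5l, Cox7c and Ndufb4, were all lower on FPKM by limma in cWT_SOD1 against cWT, by 0.22 to 0.37 on the log2(FPKM + 0.1) scale.

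**Figure D5:**
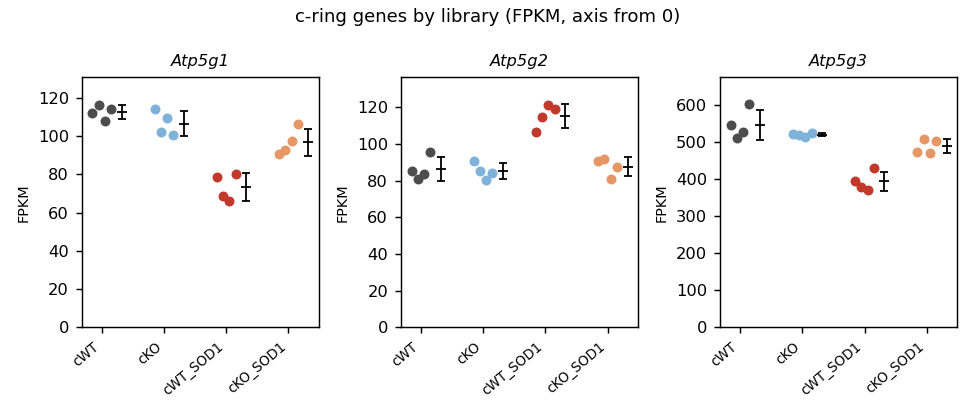
FPKM in each library (y axis, from 0) by group (x axis) for the 3 c-ring genes; bars are the mean ± SD of 4 libraries. Atp5g1 and Atp5g3 are lowest in cWT_SOD1, where Atp5g2 runs from 106 to 121 FPKM, above all other libraries.

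Other genes of the pathway are given from lists of genes that the symbol rule does not take. The lists were chosen with earlier results of these data known, and the mitochondrial ribosomal protein genes were taken by symbol. All 6 subunits and carriers that the rule leaves out, among them cytochrome c1 (Cyc1, log2 fold change −0.51) and the ATP synthase inhibitor Atpif1 (−0.59), fell in cWT_SOD1 against cWT, and 5 of 6 rose in cKO_SOD1 against cWT_SOD1. Of the 16 genes of pyruvate oxidation and the citric acid cycle 14 fell and 1 rose in the first of these comparisons. Dlat, of the pyruvate dehydrogenase complex, fell (−0.67), and Suclg2, which makes the GTP-specific succinyl-CoA ligase, rose (0.90). In the second, 12 of 16 rose and 1 fell. Of 13 complex I assembly factors 8 fell and 1 rose in the first, and 6 rose and 1 fell in the second. These counts read against the 33.1% of all genes called lower and 33.2% called higher in the first comparison, and 29.1% in either direction in the second. The counts that follow are those of the first comparison. Of the assembly factors of complexes II, III and V, 3 of 8 fell, a share near that of all genes. Atpaf1, which helps build the F1 head, was among them (−1.13). Of those of complex IV 7 of 14 fell and 2 rose. Of 15 protein import genes 11 fell and 1 rose. Of 12 regulators of mitochondrial biogenesis 6 fell, among them the coactivator Ppargc1b (−1.08), and 2 rose, among them Gabpa (0.64), a subunit of the GA-binding protein. Of 76 mitochondrial ribosomal protein genes 24 were lower, a share near that of all genes, and 7 were higher, a share below it, with a median of −0.05. Of the 16 tested glycolysis genes 9 fell, among them the neuronal enolase Eno2 (−1.01), and 2 rose, among them hexokinase 2 (Hk2, 2.44). The 13 subunits encoded in the mitochondrial genome were not analysed here.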

How the data were processed

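RNA of 16 lumbar cords was analysed, 4 biological replicates in each group. The submitters' processing notes name mm9, Cufflinks 2.0.2, TopHat2 2.0.4 and bcl2fastq 1.8.4. Not given in the sources used here are the counter, its strand setting and its handling of multiply matched reads. The authors deposited a table of raw counts per gene and tables of FPKM, normalized by the authors for transcript length and library size; the FPKM of the series table and of the library tables were identical.

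Counts were tested with edgeR 4.0.16 (R 4.3.3): TMM factors, filterByExpr, 1 quasi-likelihood fit to all 16 libraries with a coefficient per group, F-test, Benjamini-Hochberg adjustment over 15426 genes, threshold 0.05. The standard error is the log2 fold change divided by the root of F. CPM use each library's counts over the genes that passed the filter, scaled by the TMM factors. The lengths that join CPM and FPKM, and the Cox8c limit, use total counts instead. The script was tested on simulated data. Alternatives were DESeq2 1.42.0, limma 3.58.1 (voom with group weights, and log2(FPKM + 0.1) or log2(FPKM + 1) for genes of at least 0.1 mean FPKM or unfiltered), other scalings, no filter, fewer libraries, a replicate block and a sex term. Isoform ratios used exact permutation tests.

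The members and gene lists were chosen with earlier results of these data known. Named genes were Atg7 and Sod1, up to 3 called members at either end of the log2 fold changes per complex and comparison (mean of at least 1 CPM), all isoform pairs, the 5 smallest p-values where fewer than 5 members were called, and up to 2 genes with the smallest p per list. Coordinates are mm9 from the deposited files; promoters are GRCm38.p6 from RefSeq. Of 252 list entries 239 matched a symbol.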

Additional observations from a re-analysis of the deposited data

Results flagged for a closer look

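In 6 of the 156 groups of 4 libraries examined, for the named members, the highest or lowest library stood apart by Dixon's test at the 95% level; chance gives about 1 in 20 such groups, which is more than were found. Replicate 1 of cKO was the highest of its group for Atp5e (71.0 CPM), Cox5b (39.6 CPM) and Uqcr11 (31.0 CPM). Replicate 4 of cWT was the highest for Ndufb8 (195 CPM) and Cox6a1 (231 CPM), and replicate 2 of cKO the lowest for Cox4i2 (0.743 CPM).

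The transgene's effect differed between cKO and cWT by the edgeR interaction test for 16 named members, given here as log2 values, positive where the effect was more positive in cKO. In complex I these were Ndufa4 (0.53), Ndufb8 (0.53) and Ndufs7 (0.42). In complex II Sdha stood at 0.22 and Sdhc at −0.29, of opposite sign. In complex III Uqcrc1 had 0.27 and Uqcrfs1 0.21. In complex IV Cox5a had 0.43, Cox7b 0.31 and Cox4i1 0.31, against −2.51 for Cox6a2, −1.86 for Cox6b2 and −1.32 for Cox7a1. In complex V Atp5g1 had 0.60, Atp5b 0.40 and Atp5g3 0.39.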

How the results depend on the processing

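The count of members lower in cKO_SOD1 against cKO, 1 by the reported fit, moved most: 0 with total counts and no factor, 7 with DESeq2, 15 with limma-voom, 26 with only the 8 libraries compared, 2 with a sex term read from Xist and Y-linked counts, and 0 on each of the 3 FPKM scales; the cause was not tested. The FPKM scales called 1 member higher there, Cox6a2 (log2 fold change 1.41, limma adjusted p = 0.0227; 0.86 with a pseudocount of 1). With the replicate block it was 5, and the block gave 4 higher and 64 lower in cWT_SOD1 against cWT, 36 and 9 in cKO_SOD1 against cWT_SOD1, and 33 and 4 for the interaction. Same-numbered libraries of different groups correlated at −0.253 to 0.312 (median 0.026), over 0.1 in 11 of 24 pairs. Differently numbered ones correlated at −0.338 to 0.276 (median 0.002), over 0.1 in 22 of 72 pairs. Of 16 libraries 7 correlated best with their own number, where 4 would if the number had no part. Because not every same-numbered pair passed 0.1, the reported fit has no replicate term. That does not settle whether the numbers pair the libraries, and the counts with the block are given above. Leaving out 1 library at a time gave 4 to 5 members higher and 59 to 65 lower in cWT_SOD1 against cWT, 0 and 0 to 4 in cKO_SOD1 against cKO, 0 and 0 in cKO against cWT, 26 to 37 and 6 to 10 in cKO_SOD1 against cWT_SOD1, and 24 to 37 and 4 to 6 for the interaction. No called value of a named member changed sign under these alternatives. With limma-voom the calls of Atp5e, Cox5b, Cox7b2, Ndufa2 and Sdhb in cKO_SOD1 against cWT_SOD1 were lost, at limma adjusted p-values of 0.0620 to 0.0930. Limma-voom also lost the call of Ndufa4l2 in cWT_SOD1 against cWT (limma adjusted p = 0.0809). In cKO_SOD1 against cWT_SOD1, edgeR without a filter lost Ndufa2 (adjusted p = 0.0610) and Sdhb (0.0777), and edgeR with total counts lost Uqcrc2 (0.0515). On the FPKM scales limma lost the calls of Uqcrc2 there (adjusted p 0.0722 to 0.0903) and of Uqcrfs1 in the interaction (0.0559 to 0.0619). On FPKM without a filter Cox8b lost its call in cWT_SOD1 against cWT (limma adjusted p = 0.0614). Without the 6 members of short apparent length, an alternative chosen after seeing the data, 4 rose and 59 fell in cWT_SOD1 against cWT. Some motif shares depend on the window, as given above. Depth limits the isoforms of a few CPM and Atp5g2, Atp5l and Ndufb4, whose counts per library were under 100.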

Other observations

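Cox7a2l, known as a factor in joining complexes III and IV into supercomplexes, is a member by its symbol and was chosen here after its values were seen. It had a log2 fold change of 0.06 in cWT_SOD1 against cWT (edgeR adjusted p = 0.283) and fell in cKO_SOD1 against cWT_SOD1 (log2 fold change −0.16, edgeR adjusted p = 0.0104). Ndufs4, an accessory subunit whose loss causes Leigh-like disease in mice, had −0.18 (edgeR adjusted p = 0.0739) and −0.03 (edgeR adjusted p = 0.810) in the same comparisons.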
